A study of Saccharomyces cerevisiae with 22 samples.

Results

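The tricarboxylic acid (TCA) cycle enzymes described here were 10 nuclear genes of budding yeast chosen by name: CIT1, ACO1, IDH1, IDH2, KGD1, KGD2, LSC1, LSC2, FUM1 and MDH1. Together they encode the enzymes of 7 reactions of the cycle, and all 10 were found among the 7126 entries of the count table. Polyadenylated RNA was sequenced from 22 libraries of the strain W303, grown in a rich medium with 2% raffinose and then given 2% galactose for 4 h. Every cell carried a multicopy 2u plasmid. PSD1 cells (6 libraries) carried PSD1 on it behind the galactose-inducible GAL1-10 promoter. PSD1 cells without PDR3 (6 libraries) carried the same plasmid in a strain from which PDR3, which encodes a transcription factor of the drug resistance response, had been deleted. V5-PSD1 cells (5 libraries) expressed PSD1 with a V5 epitope tag from the same promoter. Empty-vector cells (5 libraries) carried the plasmid with no insert. The series title places the work in mitochondrial import stress. PSD1 encodes the phosphatidylserine decarboxylase of the mitochondrial inner membrane. Nothing in the labels states that replicates are separate cultures. The p-values therefore describe the spread between these libraries, and part of it may be technical. Every PDR3 deletion library analysed here carried the PSD1 plasmid, so an effect of the deletion can be read only against PSD1 cells.

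The TCA cycle runs in the mitochondrial matrix. It oxidises acetyl-CoA to carbon dioxide, passes the electrons to the respiratory chain and supplies precursors such as 2-oxoglutarate and oxaloacetate for amino acid synthesis. In yeast the nuclear genes for its enzymes are repressed by glucose and expressed on other carbon sources, through the Hap2/3/4/5 complex in respiring cells and through the retrograde regulators Rtg1 and Rtg3 for the first steps. The proteins are made in the cytosol and imported into mitochondria through cleavable targeting signals.

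Each member is a single coding exon in the R64 reference annotation, which holds the sacCer3 sequence of the strain S288C. CIT1 (YNR001C) lies on chromosome XIV, 629622 to 631061, and IDH1 (YNL037C) on chromosome XIV, 557920 to 559002. ACO1 (YLR304C) lies on chromosome XII, 735212 to 737548, and KGD2 (YDR148C) on chromosome IV, 753675 to 755066. IDH2 (YOR136W) and LSC1 (YOR142W) are close neighbours on chromosome XV, 580250 to 581359 and 593057 to 594046. KGD1 (YIL125W) lies on chromosome IX, 122689 to 125733, and LSC2 (YGR244C) on chromosome VII, 978036 to 979319. FUM1 (YPL262W) lies on chromosome XVI, 47336 to 48802, and MDH1 (YKL085W) on chromosome XI, 279123 to 280127. No member overlaps another annotated gene. No stretch of 30 bases in any member's coding sequence was found elsewhere in the reference, so reads of that length are not shared with the isozyme genes.

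The members were described together with the letters in front of them. In the 500 bases before the start codon, CCAAT, the core bound by the Hap2/3/4/5 complex, was searched on both strands, where it reads ATTGG on the opposite strand. It was found at least once before 8 of the 10 members, with LSC1 and LSC2 the pair that had none. Of 6000 windows of the same length before annotated genes, 62.4% held it. Before 5 members it occurred 2 or more times, against 26.4% of all windows. The sites before ACO1, KGD1, KGD2, FUM1 and MDH1 are shown because these are the 5 members with 2, and the site before IDH2 because that gene had the smallest p-value of the 10. Sequences are from RefSeq R64, 5′ to 3′ on the gene's own strand, with the motif in capitals.
KGD2, 364 bases before the start codon: ttttttgcagCCAATcaaaactaag
KGD2, 332 bases before the start codon: ccggagtgagCCAATaaagcggcca
ACO1, 290 bases before the start codon: aaggtcctgaCCAATcaatagagaa
ACO1, 207 bases before the start codon: catcaaacctCCAATcgctgccggt
KGD1, 318 bases before the start codon: cacataaatgATTGGcaaagggact
KGD1, 251 bases before the start codon: gtttagattcATTGGgtgtgtacta
FUM1, 356 bases before the start codon: tcactaccatATTGGagaggcttca
FUM1, 279 bases before the start codon: gcgttcgatgATTGGctctttcctg
MDH1, 247 bases before the start codon: ctcagcgttcATTGGctcaatcacg
MDH1, 129 bases before the start codon: gttagcacgcATTGGgtgtttgtac
IDH2, 89 bases before the start codon: gcatgacattATTGGatacactttt
GTCAC, the core bound by Rtg1 and Rtg3, was searched in the same windows, where it reads GTGAC on the opposite strand. It was found before 6 members (CIT1, ACO1, IDH1, KGD1, LSC2 and FUM1), and 42.5% of all windows held it. The site before CIT1, a gene known to need the retrograde regulators when respiration is impaired, is shown with its motif in capitals.
CIT1, 368 bases before the start codon: gctaaaaggcGTCACgtttttttcc
A match is a description of these letters in S288C and was not tested for binding in W303. No site of one motif overlapped a site of the other before these genes.

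The libraries held 8152941 to 20839061 counts, and 6278 genes, among them all 10 members, had enough counts for testing. A single member was covered by 3732 counts (KGD2 in a PSD1 library) to 55701 counts (ACO1 in a V5-PSD1 library), so counting error was small beside the spread between libraries. PSD1 mRNA averaged 15254 ± 6041 counts per 10 to the power of 6 (CPM) in PSD1 cells, 18146 ± 4805 in PSD1 cells without PDR3 and 24680.2 ± 4199 in V5-PSD1 cells, against 431 ± 143 in empty-vector cells (SD). PDR3 had 1 to 3 counts in each library of the deletion strain and at least 776 in each empty-vector library, as the labels say. GAL1, the galactokinase induced by galactose, had log2 fold changes of -0.72 in PSD1 cells, -0.64 in PSD1 cells without PDR3 and -0.86 in V5-PSD1 cells, each against empty-vector cells. The GAL1 estimate was negative in all 3 comparisons. The part of GAL1 in the results was not tested.

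By neighbouring library numbers the libraries fell into short runs, here lettered A to G, with at most 1 library of each group in a run. The 4 libraries of run A, 1 from each group, were the highest of their group in 39 of the 40 combinations of a member and a group. The exception was LSC1 in PSD1 cells. The 4 libraries of run C, again 1 from each group, were the lowest of their group in 33 of the 40. What the numbers mark is not given in the sources used here. Groups that share a run can be compared within it, and such values are given beside the pooled ones. Library numbers starting with 5 (12 libraries, 3 a group) and with 6 (10 libraries) formed the library series that entered the model as a term. In bulk RNA a lower level in every cell and a level lowered in a share of the cells cannot be told apart.

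**Figure D1:**
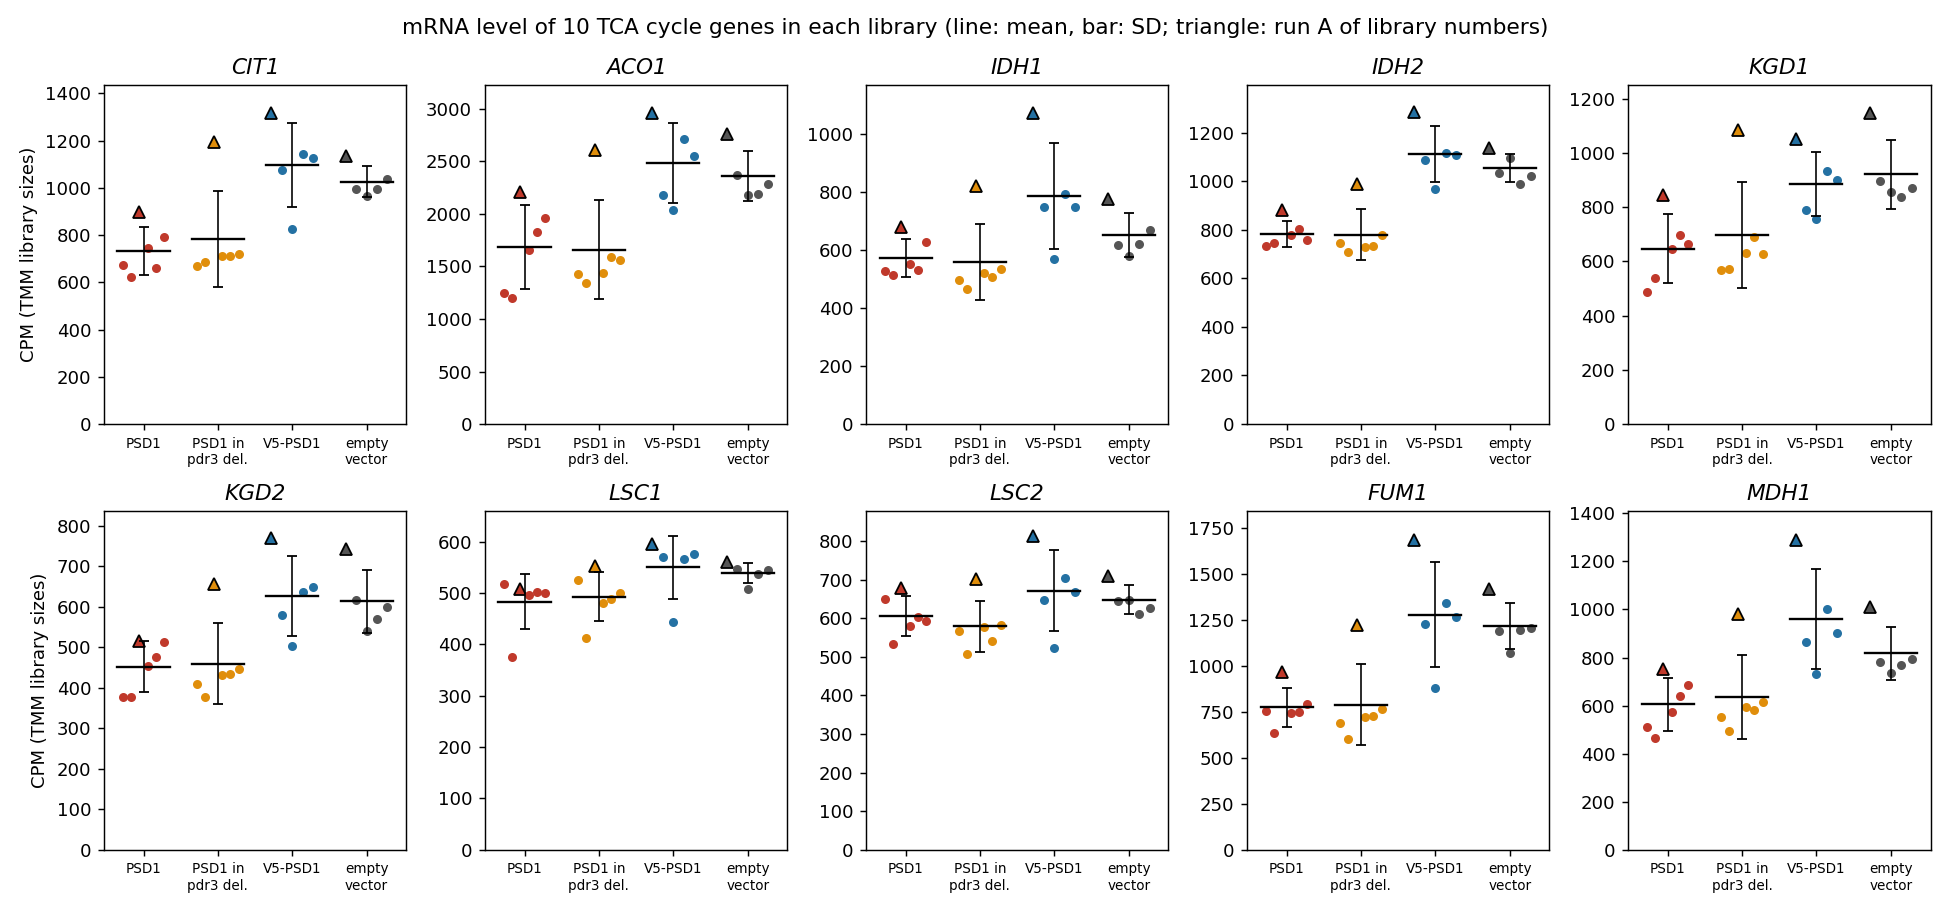
CPM (TMM library sizes) of each of the 10 TCA cycle genes, 1 panel per gene on a linear axis from 0, with 1 point per library in PSD1 cells, PSD1 cells without PDR3, V5-PSD1 cells and empty-vector cells. Lines are means and bars are SD (n = 6, 6, 5 and 5), and triangles are the libraries of run A, which top their group in 39 of 40 cases. For FUM1 every PSD1 library lies below every empty-vector library, while for LSC1 and LSC2 the groups lie close together.

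The 10 genes were abundant transcripts. On the deposited FPKM scale, which accounts for gene length, their means over all 22 libraries stood between the 86.9th percentile (KGD1, 259 FPKM) and the 96.3rd percentile (ACO1, 877 FPKM) of the tested genes, whose median was 58.2 FPKM. In PSD1 cells the order by mean FPKM was IDH2 (738 ± 37.4, SD), ACO1 (732 ± 155), MDH1 (630.4 ± 96.1), IDH1 (551 ± 46.9), FUM1 (544 ± 59.1), CIT1 (525 ± 56.2), LSC1 (513 ± 49.8), LSC2 (491 ± 31.8), KGD2 (336 ± 39.6) and KGD1 (215 ± 37). Of the neighbours in it, LSC2 and KGD2 did not overlap in range, nor did KGD2 and KGD1. In empty-vector cells the order was ACO1 (1049.6 ± 90.6), IDH2 (1015 ± 55.3), FUM1 (874 ± 77.2), MDH1 (872 ± 103), CIT1 (751 ± 37), IDH1 (642 ± 64), LSC1 (585 ± 13), LSC2 (535 ± 26.6), KGD2 (466 ± 51.6) and KGD1 (313 ± 38.9). Neighbours in this order overlapped in range except KGD2 and KGD1, the last pair. FUM1 thus stood in the fifth place with PSD1, where its range overlapped those of IDH1 and CIT1, and in the third place with the empty vector. The 10 genes together made up 0.491 ± 0.071% of all FPKM in PSD1 cells, 0.509 ± 0.109% in PSD1 cells without PDR3, 0.674 ± 0.087% in V5-PSD1 cells and 0.675 ± 0.052% in empty-vector cells (SD).

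The first comparison asked how cells that express PSD1 from the plasmid differ from cells with an empty plasmid. All 10 members had a lower mean in PSD1 cells, and 7 fell by the quasi-likelihood test of edgeR (adjusted p below 0.05 after Benjamini-Hochberg correction over all genes). These were CIT1, ACO1, IDH2, KGD1, KGD2, FUM1 and MDH1. None rose. Over all genes tested, 26.9% were called lower and 29.7% higher in this comparison. The median log2 fold change was -0.43 over the members and 0.02 over all genes tested. Every PSD1 library lay below every empty-vector library for 4 members (CIT1, IDH2, KGD2 and FUM1), a pattern that 15.7% of all genes showed, and for 0 members did every PSD1 library lie above, beside 18.4% of all genes. The members that did not pass were IDH1 and both subunits of succinyl-CoA ligase, LSC1 and LSC2.

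The entry into the cycle is made by citrate synthase, encoded by CIT1, which joins acetyl-CoA to oxaloacetate. The lowest, median and highest CPM of CIT1 were 624, 709.8 and 896 in PSD1 cells and 669, 712 and 1195 in PSD1 cells without PDR3. V5-PSD1 cells had 1317, 1076, 826, 1143 and 1125 CPM, and empty-vector cells had 1133, 993, 966, 996 and 1037 CPM. All 6 PSD1 libraries were below the lowest empty-vector library. CIT1 fell to 71.7% (95% interval 58.5 to 87.8%) of its empty-vector level in PSD1 cells, a log2 fold change of -0.48 ± 0.14 (SE, adjusted p = 0.00662). Aconitase, encoded by ACO1, turns citrate into isocitrate and also binds mitochondrial DNA. ACO1 had a lowest, median and highest CPM of 1201, 1743 and 2208 in PSD1 cells, and of 1342, 1499 and 2604 in PSD1 cells without PDR3. The V5-PSD1 libraries stood at 2957, 2181, 2035, 2718 and 2548 CPM and the empty-vector libraries at 2757, 2373, 2176, 2189 and 2289 CPM. In PSD1 cells 5 of 6 libraries were below every empty-vector library, and the highest, replicate 3, overlapped them. ACO1 fell by 0.49 ± 0.17 on the log2 scale (SE, adjusted p = 0.0224), to 71.4% (95% interval 55.5 to 91.8%) of its empty-vector level. Without empty-vector replicate 1, PSD1 replicate 1 or PSD1 replicate 2, ACO1 no longer passed (adjusted p up to 0.0626 over the 22 runs without 1 library).

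Isocitrate is oxidised to 2-oxoglutarate by NAD-dependent isocitrate dehydrogenase, an octamer of catalytic subunits from IDH2 and regulatory subunits from IDH1. In PSD1 cells the CPM of IDH2 had a minimum, median and maximum of 734, 769 and 882, and in PSD1 cells without PDR3 of 708, 738 and 989.7. Its CPM was 1288, 1088, 967, 1117 and 1107 in V5-PSD1 cells and 1137, 1033, 1095, 989.9 and 1022 in empty-vector cells. The groups of PSD1 and empty-vector libraries did not overlap, and the PSD1 libraries were close to each other. IDH2 had the smallest p-value of the 10 members, with a log2 fold change of -0.42 ± 0.08 (SE, adjusted p = 0.000285) and a level of 74.7% (95% interval 66.1 to 84.3%) of that in empty-vector cells. The lowest, median and highest CPM of IDH1 were 513, 541 and 678 in PSD1 cells and 466, 513 and 821 in PSD1 cells without PDR3. V5-PSD1 cells had 1069.8, 749, 568, 793 and 747 CPM, and empty-vector cells had 774, 615, 579.9, 621 and 667 CPM. For IDH1, 4 of 6 PSD1 libraries were below every empty-vector library and the rest overlapped them. The difference of IDH1 was -0.18 ± 0.15 (log2, SE, adjusted p = 0.302), which did not pass, and its 95% interval ran from 71.2 to 109% of the empty-vector level. The FPKM ratio of IDH1 to IDH2 averaged 0.747 ± 0.061 in PSD1 cells, 0.726 ± 0.065 in PSD1 cells without PDR3, 0.717 ± 0.090 in V5-PSD1 cells and 0.633 ± 0.060 in empty-vector cells (SD), with ranges that overlapped between all groups.

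The 2-oxoglutarate dehydrogenase complex makes succinyl-CoA. KGD1 encodes its decarboxylating component and KGD2 its succinyltransferase core. KGD1 had a lowest, median and highest CPM of 487, 655 and 846 in PSD1 cells, and of 568, 630.1 and 1085 in PSD1 cells without PDR3. The V5-PSD1 libraries stood at 1049.6, 791, 755, 935 and 899 CPM and the empty-vector libraries at 1147, 895, 857, 838 and 869 CPM. Among PSD1 libraries 5 of 6 were below every empty-vector library, and replicate 3 overlapped them. KGD1 differed by -0.50 ± 0.16 (log2, SE, adjusted p = 0.0119), to 70.5% (95% interval 55.8 to 89%) of the empty-vector level. The lowest, median and highest CPM of KGD2 were 376, 465 and 517 in PSD1 cells and 377, 433 and 657 in PSD1 cells without PDR3. V5-PSD1 cells had 769.9, 579.7, 502, 636 and 649.5 CPM, and empty-vector cells had 743, 617, 541, 569.5 and 599.6 CPM. The 6 PSD1 libraries were all below the 5 empty-vector libraries. KGD2 fell to 73.7% (95% interval 60.4 to 89.9%) of its empty-vector level (-0.44 ± 0.14 on the log2 scale, SE, adjusted p = 0.0101). The ratio of KGD1 to KGD2 on the FPKM scale was 0.637 ± 0.058 in PSD1 cells, 0.673 ± 0.046 in PSD1 cells without PDR3, 0.635 ± 0.029 in V5-PSD1 cells and 0.672 ± 0.027 in empty-vector cells (SD), and its ranges overlapped between the groups.

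Succinyl-CoA ligase makes succinate and a nucleoside triphosphate, with an alpha subunit from LSC1 and a beta subunit from LSC2. In PSD1 cells the CPM of LSC1 had a minimum, median and maximum of 376, 501 and 518, and in PSD1 cells without PDR3 of 412, 494 and 552. Its CPM was 596, 570.0, 443, 567 and 575 in V5-PSD1 cells and 559.8, 547, 507, 538 and 544 in empty-vector cells. The PSD1 and empty-vector libraries of LSC1 overlapped, and PSD1 replicate 2 lay far below the rest of its group. LSC1 differed by -0.16 ± 0.09 (log2, SE, adjusted p = 0.122), and its 95% interval ran from 78.6 to 101% of the empty-vector level. LSC2 had a lowest, median and highest CPM of 534, 599 and 679 in PSD1 cells, and of 508, 571 and 703 in PSD1 cells without PDR3. The V5-PSD1 libraries stood at 814, 648, 524, 703 and 669 CPM and the empty-vector libraries at 710.4, 646, 646, 612 and 626 CPM. For LSC2 the 2 groups overlapped as well. Its difference was -0.09 ± 0.10 (log2, SE, adjusted p = 0.432), with a 95% interval from 81.8 to 108% of the empty-vector level. A fall of the size seen for FUM1, to 63.9%, lay outside both intervals. The FPKM ratio of LSC1 to LSC2 averaged 1.05 ± 0.08 in PSD1 cells, 1.12 ± 0.07 in PSD1 cells without PDR3, 1.08 ± 0.08 in V5-PSD1 cells and 1.09 ± 0.06 in empty-vector cells (SD).

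Fumarase, encoded by FUM1, hydrates fumarate to malate and is found in yeast in both the mitochondria and the cytosol. In PSD1 cells the CPM of FUM1 had a minimum, median and maximum of 635, 752 and 965, and in PSD1 cells without PDR3 of 604, 725 and 1225. Its CPM was 1685, 1229, 878, 1341 and 1267 in V5-PSD1 cells and 1421, 1189.6, 1071, 1195 and 1207 in empty-vector cells. All 6 PSD1 libraries were below all 5 empty-vector libraries. FUM1 had the largest fall of the 10 genes, to 63.9% (95% interval 50.5 to 80.9%) of its empty-vector level (log2 fold change -0.65 ± 0.16, SE, adjusted p = 0.0022). Mitochondrial malate dehydrogenase, encoded by MDH1, closes the cycle by oxidising malate to oxaloacetate. The lowest, median and highest CPM of MDH1 were 467, 605 and 754 in PSD1 cells and 494, 588 and 983 in PSD1 cells without PDR3. V5-PSD1 cells had 1289.8, 866, 733, 1003 and 902 CPM, and empty-vector cells had 1009, 780.0, 735, 769.7 and 795 CPM. In PSD1 cells 5 of 6 libraries were below every empty-vector library, and replicate 3 overlapped them. MDH1 fell to 74.2% (95% interval 58.2 to 94.8%) of its empty-vector level (log2 fold change -0.43 ± 0.17, SE, adjusted p = 0.036). This call was lost in 6 of the 22 runs without 1 library, those without empty-vector replicate 1, 4 or 5 or PSD1 replicate 1, 2 or 4, with adjusted p up to 0.102.

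Within the library series the members differed in the same direction. In the series numbered 5 the log2 difference between PSD1 and empty-vector cells ran from -0.70 (ACO1) to -0.11 (LSC2), and in the series numbered 6 from -0.65 (FUM1) to -0.06 (LSC2). Within the runs of neighbouring numbers that hold a library of both groups, the PSD1 library was lower than its empty-vector partner for 10 of 10 members in run A (median log2 difference -0.35), for 9 in run B (-0.58), for 10 in run C (-0.59) and for 10 in run D (-0.36). LSC2 was the exception, with a difference of 0.01 in run B. Fitted with the series numbered 5 alone, which left 3 libraries a group, 1 member passed instead of 7, IDH2. With the series numbered 6 alone (2 or 3 libraries a group), 7 passed. With each run of numbers as a block in the model, 9 passed, with IDH1 and LSC1 added. IDH1 was lower in PSD1 cells in all 4 of these runs. Over all genes, the 2 series alone and the block called 1000 of 6292, 1406 of 6294 and 1782 of 6278 lower, in that order.

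**Figure D2:**
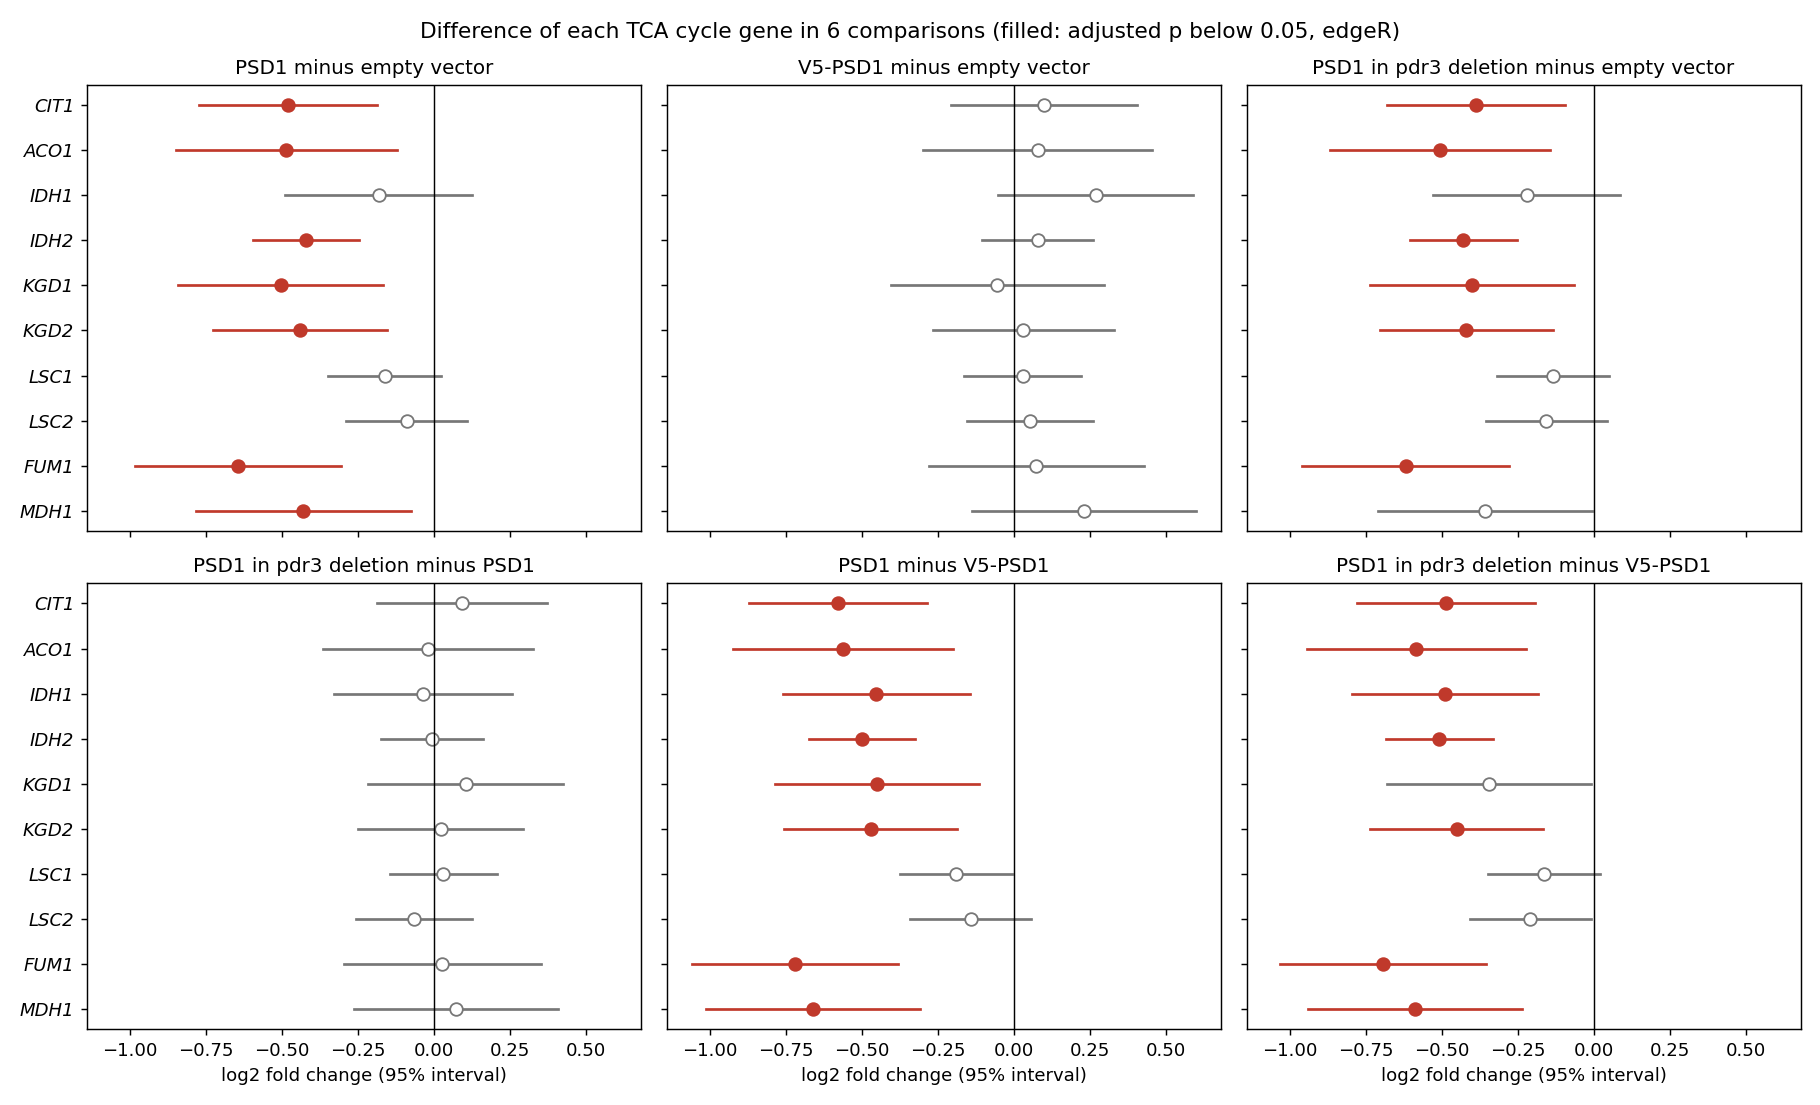
Log2 fold change of each TCA cycle gene in 6 comparisons, with its 95% interval from edgeR's quasi-likelihood fit on the horizontal axis, genes in the order of the cycle on the vertical axis and filled points for an adjusted p below 0.05. In PSD1 minus empty vector 7 points are filled and all 10 lie left of 0, in V5-PSD1 minus empty vector and in PSD1 in the PDR3 deletion minus PSD1 none is filled, and LSC1 and LSC2 are open in all 6 panels.

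The second comparison set V5-PSD1 cells, in which PSD1 mRNA was no less abundant than in PSD1 cells, against the same 5 empty-vector libraries. None of the 10 members was called lower and none higher by edgeR's quasi-likelihood test, where 0.494% of all genes tested were called lower and 2.53% higher. At an unadjusted p below 0.05 the number of members was 0 as well, and DESeq2 and limma also called 0. The log2 fold changes ran from -0.05 (KGD1) to 0.27 (IDH1), with a median of 0.08 over the members and 0.02 over all genes tested. The values of each V5-PSD1 library are given above. They overlapped those of empty-vector cells for each of the 10 genes, where 1.23% of all genes had every V5-PSD1 library lower and 3.78% every one higher, and V5-PSD1 replicate 3 was the lowest and replicate 1 the highest of the group. FUM1 stood at 105% (95% interval 82.3 to 135%) of its empty-vector level (log2 0.07 ± 0.17, SE, adjusted p = 0.854). CIT1 stood at 107% (95% interval 86.6 to 132%) and IDH2 at 106% (95% interval 93 to 119.9%). IDH1 and MDH1 had the highest values, 0.27 ± 0.15 (adjusted p = 0.383) and 0.23 ± 0.18 (adjusted p = 0.519) on the log2 scale. Over the 10 genes the 95% intervals of the level reached down to 75.5% (KGD1) and up to 151% (IDH1 and MDH1) of the empty vector. The library series gave ranges of -0.16 (KGD1) to 0.24 (IDH1) and of 0.08 (LSC1) to 0.28 (MDH1). Within the runs, the V5-PSD1 library was lower than its empty-vector partner for 1 member in run A, 3 in run B, 10 in run C and 0 in run F.

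A direct test set PSD1 cells against V5-PSD1 cells, which share the vector, the promoter and the growth conditions and differ by the tag. In PSD1 cells 8 of 10 members fell and none rose, where 20.1% of all genes tested were called lower and 20.3% higher. The members' median log2 fold change was -0.49, and that of all genes tested was 0.01. FUM1 (-0.72 ± 0.16, SE, adjusted p = 0.00152) and MDH1 (-0.66 ± 0.17, adjusted p = 0.00399) had the largest estimated falls, to 60.7% and 63.3% of their V5-PSD1 levels. CIT1 followed with -0.58 ± 0.14 (adjusted p = 0.00267) and ACO1 with -0.56 ± 0.17 (adjusted p = 0.0133). Differences between the genes were not tested. Both isocitrate dehydrogenase subunits fell, IDH2 by 0.50 ± 0.08 (adjusted p = 0.000112) and IDH1 by 0.45 ± 0.15 (adjusted p = 0.0184). KGD2 differed by -0.47 ± 0.14 (adjusted p = 0.00933) and KGD1 by -0.45 ± 0.16 (adjusted p = 0.0308). LSC1 (-0.19 ± 0.09, adjusted p = 0.0894) and LSC2 (-0.14 ± 0.10, adjusted p = 0.243) did not pass. The PSD1 and V5-PSD1 libraries did not overlap for 1 member, IDH2, where 10.1% of all genes had every PSD1 library lower and 9.84% every one higher.

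The difference between PSD1 and V5-PSD1 cells was also seen within the runs of neighbouring library numbers. The PSD1 library was the lower one for 10 members in run A (median -0.55), 9 in run B (-0.65), 9 in run C (-0.41) and 10 in run E (-0.52). Within the series the differences ran from -0.73 (MDH1) to -0.08 (LSC2) for the number 5 and from -0.77 (FUM1) to -0.19 (LSC1) for the number 6. No member passed with the series numbered 5 alone, all 10 passed with the series numbered 6 alone, and 9 passed with each run as a block. Over all genes, these fits called 287 of 6292, 967 of 6294 and 1325 of 6278 lower, in that order. The IDH1 call was lost without V5-PSD1 replicate 1 (adjusted p = 0.0696), and the KGD1 call without PSD1 replicate 1 or 2 or V5-PSD1 replicate 1, 4 or 5 (up to 0.0772). LSC1 and LSC2 passed once V5-PSD1 replicate 3 was left out (adjusted p = 0.0225 and 0.0476). PSD1 mRNA itself was lower in PSD1 than in V5-PSD1 cells (-0.69 ± 0.26, adjusted p = 0.0383), and its part in the difference was not tested.

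**Figure D3:**
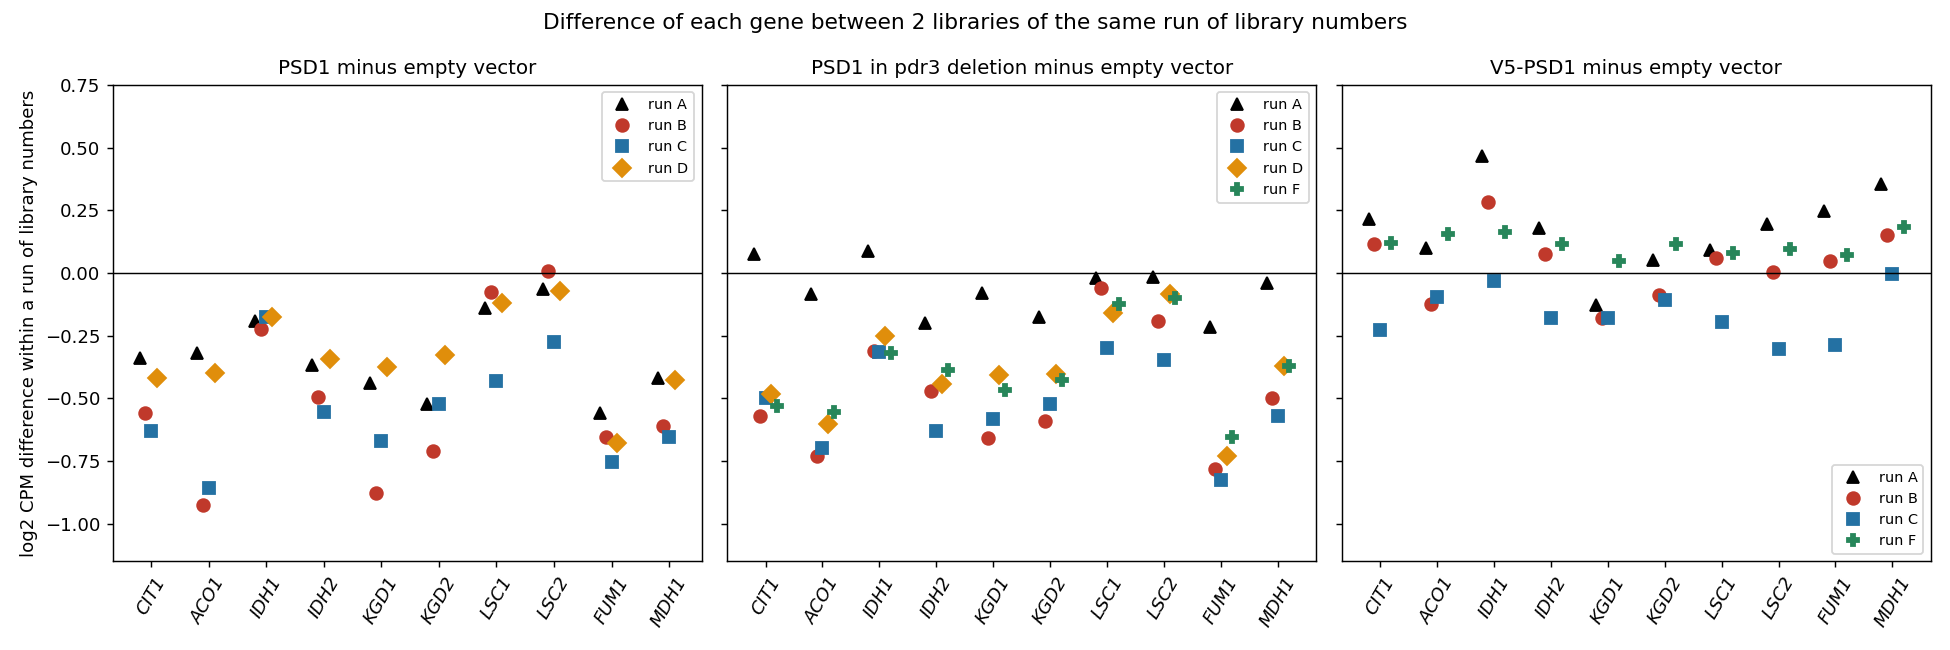
Log2 CPM difference of each TCA cycle gene between 2 libraries of the same run of library numbers, for PSD1 minus empty vector, PSD1 without PDR3 minus empty vector and V5-PSD1 minus empty vector, with 1 symbol per run of numbers. In the first panel all points but 1 (LSC2) are below 0, in the second the triangles (run A, median -0.06) lie above the other runs (medians -0.55 to -0.41), and in the third the points lie on both sides of 0.

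Deletion of PDR3 was examined in cells with the same PSD1 plasmid. Against PSD1 cells with PDR3, none of the 10 members was called lower or higher, where 0.398% of all genes tested were called lower and 0.0159% higher. None passed at an unadjusted p below 0.05, and DESeq2 and limma called none. The log2 fold changes ran from -0.07 (LSC2) to 0.10 (KGD1), with medians of 0.02 over the members and 0.00 over all genes tested. FUM1, which had the largest fall with PSD1, stood at 102% (95% interval 81.4 to 128%) of its level in PSD1 cells, and IDH2 at 99.5% (95% interval 88.6 to 112%). Over the 10 genes the 95% intervals reached from 77.7% (ACO1) to 134% (KGD1) of the PSD1 level. The 2 groups overlapped for every member, where 0.366% of all genes had every library without PDR3 lower and 0.0637% every one higher. In the runs of neighbouring numbers the direction differed: the library without PDR3 was the lower one for 0 members in run A, 4 in run B, 4 in run C, 9 in run D and 9 in run E.

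Against the empty vector, PSD1 cells without PDR3 showed 6 members lower and none higher (21.4% of all genes called lower and 26.1% higher), with a median log2 fold change of -0.39 over the members and 0.02 over all genes tested. This comparison shares its 5 empty-vector libraries with the first one. FUM1 again had the largest fall, -0.62 ± 0.16 (log2, SE, adjusted p = 0.00384) beside -0.65 in PSD1 cells. ACO1 fell by 0.51 ± 0.17 (adjusted p = 0.0211) beside -0.49, and IDH2 by 0.43 ± 0.08 (adjusted p = 0.000323) beside -0.42. KGD2 (-0.42 ± 0.14, adjusted p = 0.016), KGD1 (-0.40 ± 0.16, adjusted p = 0.0465) and CIT1 (-0.39 ± 0.14, adjusted p = 0.0282) also passed. MDH1 (-0.36 ± 0.17, adjusted p = 0.0868), IDH1 (-0.22, 0.229), LSC2 (-0.16, 0.188) and LSC1 (-0.13, 0.225) did not. MDH1 was called lower by DESeq2 and limma, with each run of library numbers as a block and with the series numbered 6 alone. The libraries of these 2 groups were apart for 1 member, IDH2, beside 13.1% of all genes with every library lower and 16.5% with every one higher. The gap for IDH2 was narrow. Replicate 3 of PSD1 cells without PDR3, at 989.7 CPM, lay just below empty-vector replicate 4, the lowest of its group.

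The library of PSD1 cells without PDR3 numbered replicate 3, from run A, was above the other 5 for all 10 members. Without it, 8 members passed instead of 6, with IDH1 (adjusted p = 0.0224) and MDH1 (adjusted p = 0.00476) added. Without empty-vector replicate 1, the highest empty-vector library, 2 passed, IDH2 and FUM1. The KGD1 call was lost in 16 of the 22 runs without 1 library (adjusted p up to 0.135) and the CIT1 call in 6 of them (up to 0.0674). Those CIT1 runs left out empty-vector replicate 1 or 5 or replicate 1, 2, 5 or 6 of PSD1 cells without PDR3. Within the runs of neighbouring numbers the library without PDR3 was below its empty-vector partner for 8 members in run A (median log2 difference -0.06), and for 10 members in each of runs B (-0.54), C (-0.55), D (-0.41) and F (-0.41). With each run of numbers as a block in the model, all 10 members passed. In the series numbered 5 alone none passed, with differences from -0.61 (FUM1) to -0.13 (LSC1). In the series numbered 6 alone 8 passed, with differences from -0.70 (FUM1) to -0.13 (LSC2). Over all genes, these fits called 1522 of 6278, 281 of 6292 and 1261 of 6294 lower, in that order.

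PSD1 cells without PDR3 were also set against V5-PSD1 cells, and 7 members were lower and none higher (14.2% of all genes called lower and 15.5% higher). The largest falls were those of FUM1 (-0.69 ± 0.16, log2, SE, adjusted p = 0.00301), MDH1 (-0.59 ± 0.17, adjusted p = 0.0117) and ACO1 (-0.58 ± 0.17, adjusted p = 0.0146). IDH2 (-0.51, adjusted p = 0.000167), IDH1 (-0.49, 0.0155), CIT1 (-0.49, 0.0121) and KGD2 (-0.45, 0.0165) passed too. KGD1 (-0.35, adjusted p = 0.114), LSC2 (-0.21, 0.108) and LSC1 (-0.16, 0.181) did not. No member had groups that did not overlap, where 7.2% of all genes had every library of PSD1 cells without PDR3 lower and 7.3% every one higher. Members were lower within the runs for 9 of 10 members in run A and for 10 of 10 in each of the other 4 shared runs. The calls of IDH1 (adjusted p = 0.059) and KGD2 (adjusted p = 0.0537) were lost without V5-PSD1 replicate 1. LSC1 and LSC2 therefore passed in none of the 6 comparisons in the model of all 22 libraries. Both passed in the 2 comparisons against V5-PSD1 with the series numbered 6 alone. With the runs of library numbers as a block, LSC1 passed in 4 comparisons and LSC2 in 2. LSC1 was also called lower by limma in PSD1 cells against the empty vector. In PSD1 cells without PDR3, KGD1 and LSC2 also passed against V5-PSD1 cells once replicate 3 of that group was left out (adjusted p = 0.00533 for KGD1). LSC2 passed without V5-PSD1 replicate 3 as well (adjusted p = 0.017).

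Succinate dehydrogenase, which joins the cycle to the respiratory chain, and the remaining subunits of 2-oxoglutarate dehydrogenase stand beside the members. The list of 10 genes also holds 4 for assembly factors of succinate dehydrogenase. Of these 10 genes, 2 fell and 4 rose in PSD1 cells against the empty vector, near the 26.9% lower and 29.7% higher over all genes tested. The falls were those of SDH1 (-0.61 ± 0.15, adjusted p = 0.0016), the flavoprotein subunit, and SDH2 (-0.50 ± 0.10, adjusted p = 0.000364), the iron-sulfur subunit. The rises were those of SDH5 (1.27 ± 0.12, adjusted p = 9.2e-08), SDH7 (1.16 ± 0.13, 4.44e-07), SDH8 (0.73 ± 0.10, 3.07e-06) and SDH6 (0.65 ± 0.14, 0.000398), which encode assembly factors of the complex and none of its subunits. SDH5 averaged 164 ± 17 CPM in PSD1 cells, against 68 ± 11 CPM in empty-vector cells (SD), while SDH1 averaged 771 ± 171 and 1169 ± 129 CPM in PSD1 and empty-vector cells. The membrane subunits SDH3 and SDH4, the shared lipoamide dehydrogenase LPD1 and KGD4 did not pass. SDH4 was called lower under 4 of the 10 alternatives and in 2 of the 22 fits without 1 library, and LPD1 under 2 alternatives. The list's median log2 fold change was -0.01, and the members' was -0.43. Of the list's estimates 5 were negative and 5 positive, with the 4 assembly factor genes among the positive ones. The list's median therefore does not describe the subunit genes alone. In PSD1 cells without PDR3, 5 of the 10 fell against the empty vector, and the same 4 assembly factor genes rose, by 0.46 (SDH6) to 1.07 (SDH5). Over all genes tested, 21.4% were called lower and 26.1% higher there. With the series numbered 5 alone, 0 of the 10 were called lower. The SDH3 and SDH4 calls were also lost without empty-vector replicate 1 or 5. In V5-PSD1 cells 0 of the 10 passed. Set against V5-PSD1 cells, 4 fell and 4 rose in PSD1 cells, beside 20.1% lower and 20.3% higher over all genes tested. Between PSD1 cells without and with PDR3, 0 passed.

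**Figure D4:**
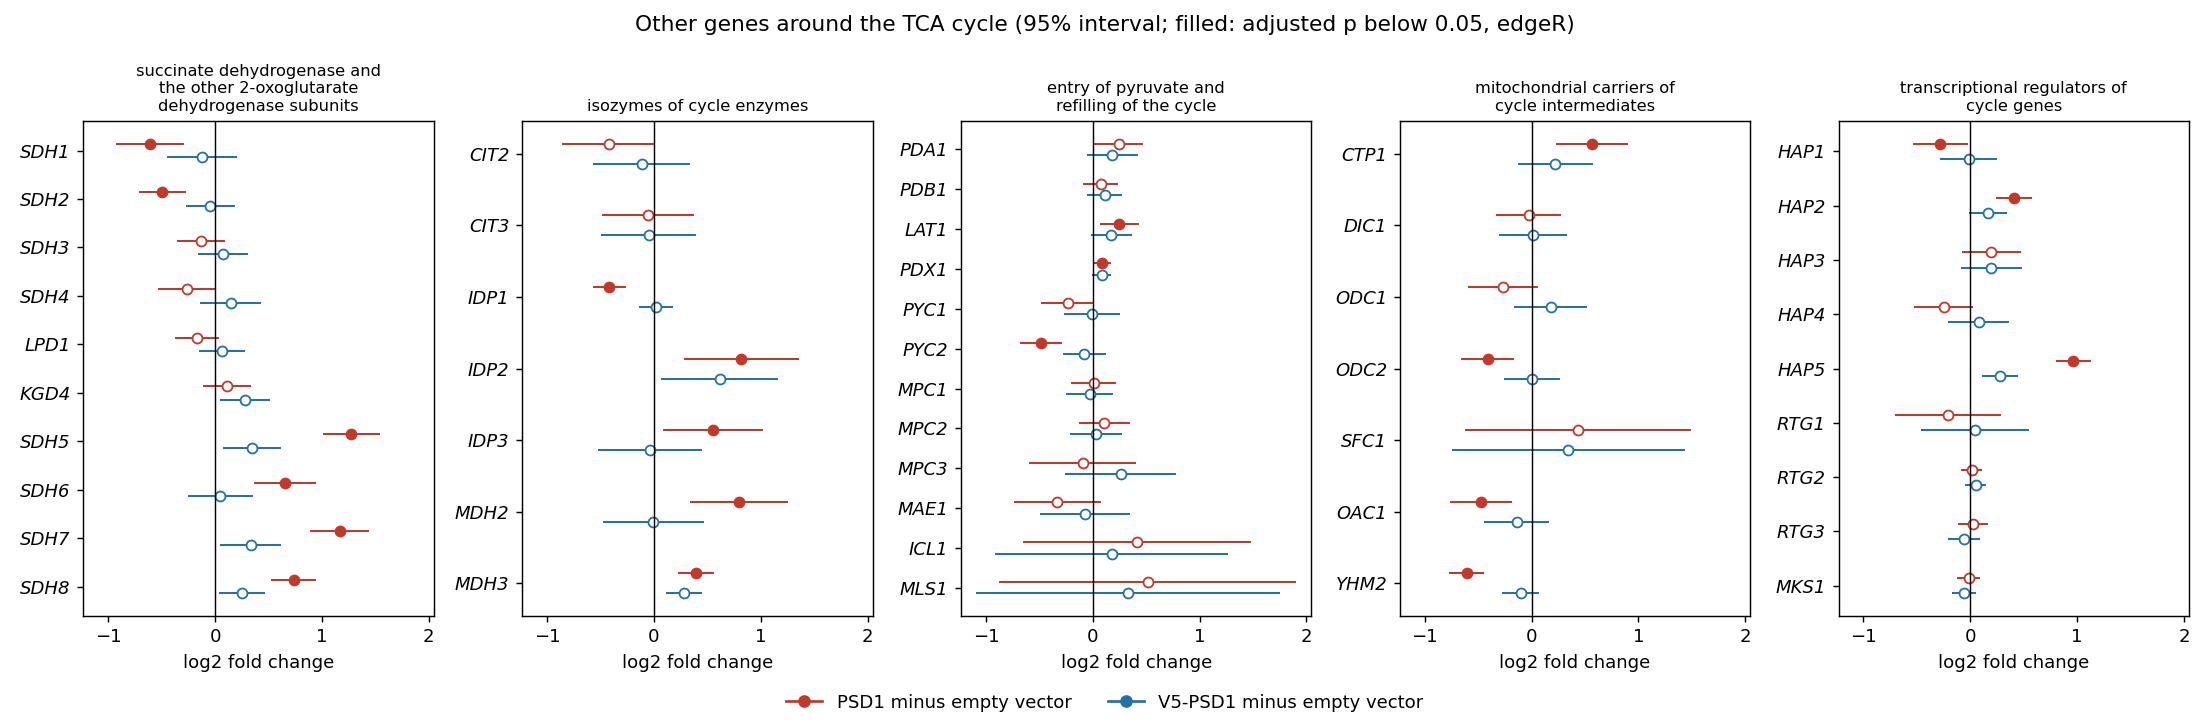
Log2 fold change with 95% interval (horizontal axis) of the other genes around the TCA cycle in PSD1 cells (red) and V5-PSD1 cells (blue), each minus empty vector, in 5 lists, with filled points for an adjusted p below 0.05. The assembly factor genes SDH5 to SDH8 and HAP5 lie to the right in PSD1 cells and SDH1, SDH2 and YHM2 to the left, and no blue point is filled.

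Isozymes catalyse cycle reactions elsewhere in the cell or with another cofactor. In PSD1 cells 4 of 7 rose and 1 fell against the empty vector, beside 29.7% higher and 26.9% lower over all genes tested, with a median log2 fold change of 0.39. Those that rose were IDP2 (0.82 ± 0.25, adjusted p = 0.00943) and MDH2 (0.80 ± 0.22, 0.00374), cytosolic enzymes, and IDP3 (0.55, 0.0388) and MDH3 (0.39, 0.000184), peroxisomal enzymes. The mitochondrial IDP1 (-0.42 ± 0.07, adjusted p = 4.54e-05) fell. CIT2, the peroxisomal citrate synthase used as a readout of retrograde signalling, differed by -0.42 ± 0.20 and did not pass (adjusted p = 0.0836). It was called lower under 3 of the 10 alternatives (DESeq2, the replicate block and each run of library numbers as a block). The same held in 2 of the 22 fits without 1 library. The counts were 4 up and 1 down in PSD1 cells without PDR3 and 0 in V5-PSD1 cells. In the former, 26.1% of all genes tested were called higher and 21.4% lower. PSD1 against V5-PSD1 cells gave 2 up (MDH2 and IDP3) and 1 down (IDP1), beside 20.3% higher and 20.1% lower over all genes tested. The IDP3 calls in PSD1 cells, against the empty vector and against V5-PSD1 cells, were each lost with the replicate block and in 8 of the 22 fits without 1 library. With the series numbered 5 alone, 0 isozymes were called higher in PSD1 cells against the empty vector or V5-PSD1 cells. The same held for PSD1 cells without PDR3 against the empty vector. Over all genes, that fit called 1041, 313 and 479 of 6292 higher in these comparisons, in that order.

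Of 12 genes for the entry of pyruvate and the refilling of the cycle, 2 rose and 1 fell in PSD1 cells against the empty vector, below the 29.7% higher and 26.9% lower over all genes tested. LAT1 (0.25 ± 0.09, adjusted p = 0.0169) and PDX1 (0.09 ± 0.04, 0.0368), subunits of pyruvate dehydrogenase, rose slightly, and PYC2 (-0.48 ± 0.09, 0.00014), a cytosolic pyruvate carboxylase, fell. The PDX1 call was lost under 5 of the 10 alternatives (PSD1 left out of library sizes, the 2 groups alone, limma, and either series alone) and in 6 of the 22 fits without 1 library. Of 7 mitochondrial carriers of cycle intermediates 3 fell and 1 rose, beside the same shares over all genes. YHM2 (-0.61 ± 0.07, adjusted p = 1.53e-06) carries citrate and 2-oxoglutarate, OAC1 (-0.48 ± 0.13, 0.00523) oxaloacetate and ODC2 (-0.41 ± 0.12, 0.00519) oxodicarboxylates. The one that rose was CTP1 (0.57 ± 0.16, 0.00446), the citrate transporter. In PSD1 cells against the empty vector, the calls of LAT1, CTP1, OAC1 and ODC2 were lost with the series numbered 5 alone. Medians were 0.08 for the entry genes and -0.27 for the carriers. Against V5-PSD1 cells, PSD1 cells had 1 of the entry genes (PYC2) and 3 carriers (YHM2, ODC1 and ODC2) lower and none higher. Over all genes tested, 20.1% were called lower and 20.3% higher in that comparison. Against the empty vector, PSD1 cells without PDR3 had 21.4% of all genes tested lower and 26.1% higher. Those cells had 2 entry genes up and 1 down against the empty vector, and 1 carrier up and 3 down. The carrier called higher there, CTP1, lost its call under 7 of the 10 alternatives. The ODC1 call against V5-PSD1 cells was lost without PSD1 replicate 2 or V5-PSD1 replicate 1 or 4.

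Among 9 transcriptional regulators of cycle genes, 2 rose and 1 fell in PSD1 cells against the empty vector, below the 29.7% higher and 26.9% lower over all genes tested. HAP5 (0.96 ± 0.07, adjusted p = 6.52e-09) and HAP2 (0.41 ± 0.08, 0.000145), DNA-binding subunits of the complex that binds CCAAT, rose. HAP5 averaged 63.1 ± 5.96 CPM in PSD1 cells and 32.3 ± 2.83 CPM in empty-vector cells (SD). HAP1, the haem-responsive activator, fell by 0.28 ± 0.12, at an adjusted p of 0.0491, and this call was lost under 5 of the 10 alternatives (no filter on low counts, these 2 groups alone, the replicate block, and either series alone) and in 15 of the 22 fits without 1 library. HAP4, the activation subunit whose level limits the complex, differed by -0.25 ± 0.13 and did not pass (adjusted p = 0.0998). It was called lower by limma, with each run of library numbers as a block and in 1 of the 22 fits without 1 library. Set against V5-PSD1 cells, HAP4 was lower in PSD1 cells (-0.33 ± 0.13, adjusted p = 0.0449), while HAP5 (0.69) and HAP2 (0.25) were higher. That HAP4 call was lost with these 2 groups alone, with the series numbered 5 alone and in 13 of the 22 fits without 1 library. Against the empty vector, the retrograde genes RTG1, RTG2 and RTG3 and their inhibitor MKS1 lay between -0.21 and 0.03 in PSD1 cells and did not pass. RTG3 fell in PSD1 cells without PDR3 (-0.18 ± 0.06, adjusted p = 0.0289), where HAP5 and HAP2 rose and HAP1 did not pass. The RTG3 call was lost with limma, with either series alone and in 5 of the 22 fits without 1 library. These are mRNA levels. In V5-PSD1 cells against the empty vector, edgeR called 0 genes of the 5 lists in the model of all 22 libraries. At an unadjusted p below 0.05 there were 4 among the succinate dehydrogenase list, 2 isozymes, 1 entry gene, 0 carriers and 1 regulator, and DESeq2 called 1 isozyme (MDH3) and 1 regulator (HAP5) higher. With the replicate block edgeR called SDH5, MDH3 and HAP5 higher, with each run of library numbers as a block IDP2, MDH3 and HAP5, and with the series numbered 6 alone IDP2. Between PSD1 cells without and with PDR3, edgeR and DESeq2 called 0 genes of the 5 lists, and 1 carrier and 1 regulator had an unadjusted p below 0.05.

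The patterns of the members over the 22 libraries were compared as log2 CPM centred on each gene's mean, with the root mean square difference as the measure. The smallest difference among members was that of KGD1 and KGD2 (0.0948), the subunits of 1 complex, and each was the other's nearest gene among all tested. LSC1 and LSC2 were each other's nearest member (0.0956). The measure is small for genes that vary little. Around their own means LSC1 and LSC2 had root mean square deviations of 0.155 and 0.163, against 0.332 for KGD1 and 0.305 for KGD2. Outside the 10, the nearest gene was SDH1 for ACO1 (0.101), SDH2 for KGD2 (0.0998), IDP1 for IDH2 (0.0722), and ODC1 for both IDH1 (0.0738) and MDH1 (0.129). ATP1 was nearest to FUM1 (0.0953) and ATP4 to CIT1 (0.120), and both encode subunits of ATP synthase. NDI1, the internal NADH dehydrogenase, was nearest to KGD1 (0.105), LPD1 to LSC2 (0.102) and SRF1 to LSC1 (0.0948). The median difference of a member to all tested genes was between 0.271 (LSC1) and 0.474 (FUM1). These differences describe libraries that share their group and their run of library numbers, and carry no test.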

How the data were processed

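Expected counts per gene, deposited by the authors as whole numbers (a unit RSEM gives), were the basis of the tests, and the deposited log2 values of FPKM plus 1 gave levels per length. RSEM 1.3.0, STAR 2.5.3a, SAMtools 1.3 and the sacCer3 build are listed, with no role for each, per the submitters' processing notes. No source used here gives the strand setting or the annotation used for counting. Columns were joined to samples by the library number in the labels. The headers of 2 count columns gave another replicate number than the label did. Of 7126 entries, 6048 matched a locus of the R64 annotation. The libraries held 8152941 to 20839061 counts.

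Genes were filtered with filterByExpr by group (6278 kept) and scaled by TMM (trimmed mean of M values). A single model with group and library series as terms was fitted to the 22 libraries with the quasi-likelihood method of edgeR 4.0.16. All adjusted p-values are Benjamini-Hochberg values over all genes tested, at 0.05. Standard errors were the log2 fold change divided by the square root of F, and 95% intervals used the fit's degrees of freedom. CPM are counts divided by the TMM library size, times 10 to the power of 6. Runs A to G are stretches of library numbers cut for this report with at most 1 library of each group, and run G is a single library. Log2 CPM used a prior count of 2. Alternatives were DESeq2 1.42.0, limma 3.58.1 on the deposited log2 FPKM, no filter, PSD1 left out of library sizes, the 2 groups alone, no series term, the replicate number or the run of library numbers as a block, each series alone, and 22 fits without 1 library. Tests were first checked on counts simulated for PSD1 minus empty vector, without any effect of library series or run. True log2 changes of -0.5 and 0.5 were called in 70% and 62% of 50 genes each. Changes of -1 and 1 were called in 90% and 100%, and 0.148% of 6078 unchanged genes were called. The check does not cover spread shared within a run. Software was R 4.3.3, Python 3.11.15, pandas 2.3.3, numpy 2.4.6 and matplotlib 3.10.9.

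The 10 members and the 5 further lists were chosen with earlier results of these data known, and 1 gene of a further list is not reported here. All 10 members are named in each comparison. Of each further list, counts are given and up to 4 genes with the largest change among those that passed are named. A likeness of pattern names the gene with the smallest root mean square difference. Other genes named in the text were chosen after their values were seen.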

Additional observations from a re-analysis of the deposited data

Results flagged for a closer look

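Each member was examined within each of the 4 groups, 40 sets of 5 or 6 libraries, for a library far from the others by Dixon's test at the 95% level, which chance passes in about 1 in 20 sets. It was passed in 12 sets. In PSD1 cells without PDR3, replicate 3 was far above the other 5 libraries for 8 members. It had 1195 CPM of CIT1, 2604 CPM of ACO1, 821 CPM of IDH1, 989.7 CPM of IDH2, 1085 CPM of KGD1, 657 CPM of KGD2, 1225 CPM of FUM1 and 983 CPM of MDH1. The next highest library of that group had 719 CPM of CIT1 and 1589 CPM of ACO1.

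In empty-vector cells replicate 1 was far above the rest for KGD1 (1147 CPM) and MDH1 (1009 CPM). Both of these libraries belong to run A of the library numbers. LSC1 was far below the rest in PSD1 replicate 2 (376 CPM) and in V5-PSD1 replicate 3 (443 CPM), both from run C. Values with and without replicate 3 of PSD1 cells without PDR3, and without empty-vector replicate 1, are given with the comparisons.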

How the results depend on the processing

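No member was called higher in any of the 6 comparisons under any of the 10 alternatives or the 22 fits without 1 library, and no called direction reversed. Of 600 single values under the alternatives, 29 lost a call and 20 gained one. With the series numbered 5 alone (3 libraries a group), 1 member was called lower in PSD1 minus empty vector. That fit called 0 in PSD1 in the PDR3 deletion minus empty vector, in PSD1 minus V5-PSD1 and in PSD1 in the PDR3 deletion minus V5-PSD1. With the series numbered 6 alone (2 or 3 libraries a group), 7, 8, 10 and 10 were called lower, in the same order. Over all genes, the series numbered 5 called 1000, 281, 287 and 89 of 6292 lower in these comparisons. The series numbered 6 called 1406, 1261, 967 and 848 of 6294 lower. With the run of library numbers as a block, 10 members were called lower in PSD1 in the PDR3 deletion minus empty vector and in PSD1 in the PDR3 deletion minus V5-PSD1. The block called 9 lower in PSD1 minus empty vector and in PSD1 minus V5-PSD1. Over all genes it called 1522, 1074, 1782 and 1325 of 6278 lower in these comparisons, in the order given. Without 1 library the members called lower ranged from 5 to 7 in PSD1 minus empty vector, 2 to 8 in PSD1 in the PDR3 deletion minus empty vector, 6 to 10 in PSD1 minus V5-PSD1 and 5 to 9 in PSD1 in the PDR3 deletion minus V5-PSD1, and stayed at 0 in the other 2 comparisons.

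Same-numbered replicates of different groups deviated together in part. Their deviations from the group means correlated at -0.13 to 0.61 over 31 pairs (median 0.21), and 21 pairs were over 0.1, short of the every pair set as the rule for pairing. The median was 0.01 for other numbers of the same series and -0.06 between series, and 0.21 within runs of library numbers (19 of 27 pairs over 0.1). With the replicate block 7 members were called lower in PSD1 minus empty vector (median log2 fold change -0.46), and no count of members moved by over 1.5 times. Over all genes, limma on log2 FPKM called 1470 higher and 971 lower in PSD1 minus V5-PSD1, where edgeR called 1277 and 1264, and 1250 higher and 622 lower in PSD1 in the PDR3 deletion minus V5-PSD1, where edgeR called 972 and 892. In V5-PSD1 minus empty vector the calls were 159 higher and 31 lower by edgeR, 13 and 1 with the series numbered 5 alone, and 338 and 84 with the run of library numbers as a block. The causes were not tested.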
